A study of Homo sapiens with 5 samples.

Results

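Interferon epsilon (IFNE) and a set of interferon-stimulated genes were followed across 5 treatments of GFP-SAS cells, which derive from a squamous carcinoma of the human tongue and carry green fluorescent protein. The set was defined by gene name: 39 genes were listed, and the probe sets naming only one of them, by current or earlier symbol, were taken from the deposited array table. In all, 38 of the 39 were measured, out of 18239 genes, and STAT2 was not analysed here. They were read by 91 probe sets, 16 genes by a single one and 22 by several, and several probe sets of a gene were combined by their median. Cells received for 24 h either siAURKA-1 or siAURKA-2, both siRNAs against Aurora kinase A at 10 nM, the non-targeting siRNA siNT, 100 nM MLN8237 (alisertib, an inhibitor of that kinase), or the vehicle DMSO, and each treatment was measured on 1 Affymetrix GeneAtlas array. With 1 array per treatment no test could be run, no p-value is given, and precision is limited because no difference could be checked in a replicate.

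The deposited values, taken as log2 signal, had been centred per probe set, so that 0 is the median of the 5 arrays. They compare arrays for one gene and carry no level, so they cannot say whether a gene was expressed, nor could the line's squamous markers be checked for presence. Of 4 measured squamous markers, the keratin gene KRT5 read 0.32 with siAURKA-1 and -1.82 with siAURKA-2, against 0.00 with siNT, -0.26 with MLN8237 and 0.19 with DMSO, and the E-cadherin gene CDH1 read 0.52 and -0.54, against -0.08, 0.04 and 0.00. KRT14 and EPCAM lay between -0.21 and 0.11. All 4 were above siNT with siAURKA-1 and below it with siAURKA-2, and their part in the results below was not tested. Differences are log2 differences between 2 arrays, and a gene was counted as different when they were at least 1.5-fold apart (0.585 on the log2 scale). In such bulk RNA, fewer responding cells and less RNA per cell cannot be told apart. The target of the siRNAs, AURKA, was lower by -3.36 with siAURKA-1 and by -2.64 with siAURKA-2 than with siNT. Of the other cell types the culture could hold, 8 measured leukocyte markers differed by between -0.16 and 0.13, and 6 fibroblast markers by between -0.09 and 0.09 when each siRNA against AURKA was set against siNT, and MLN8237 and siNT against DMSO.

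Type I interferons are secreted proteins that bind a shared cell surface receptor, whose kinases activate transcription factors in the cell. A complex that holds STAT2 and IRF9 then binds the interferon-stimulated response element in the promoters of antiviral genes. Interferon epsilon is an unusual member of the family, made constitutively by epithelium, chiefly of the female reproductive tract, rather than after virus sensing. Cells also raise part of the same genes without secreted interferon, through IRF3, IRF1 or NF-kB, and the sensors RIGI and IFIH1 detect foreign RNA in the cytosol.

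The promoters of the set show how far its members share that element. RefSeq promoter windows of 300 bases (250 before to 50 after the annotated start, GRCh38.p14) were available for 30 of the 38 genes, in 38 windows, and not for GBP2, IFIT2, IFITM2, IRF7, MX2, OAS2, OASL and TRIM22. The core of the element (GAAA, then any 2 bases, then GAAA, on either strand) occurred in a window of 22 of the 30 genes (73.3%), against 4.38% of 27305 genes and 3.57% of 35116 windows overall. A longer form, the core followed by CT, occurred in 14 of the 30 (46.7%), against 0.322% of all genes and 0.273% of all windows. IFNE, IRF1, IRF9, RIGI, OAS1, HERC6, IFI35 and XAF1 had no core match in these windows. Printed here 5′ to 3′ in the direction of transcription, with core matches in capitals, are the promoter of IFNE and those of 5 stimulated genes whose values across the arrays differ most in kind: IFIT3 (high with siAURKA-2), PARP9 (high with siAURKA-1), GBP1 (high with siAURKA-2 and siNT), IFIT1 (lower with all siRNAs than without siRNA) and ISG15 (within 1.5-fold over all arrays). For IFIT3 and PARP9, with more than one window, the first window with the most matches is shown.
IFNE, chr9:21482264-21482563, minus strand: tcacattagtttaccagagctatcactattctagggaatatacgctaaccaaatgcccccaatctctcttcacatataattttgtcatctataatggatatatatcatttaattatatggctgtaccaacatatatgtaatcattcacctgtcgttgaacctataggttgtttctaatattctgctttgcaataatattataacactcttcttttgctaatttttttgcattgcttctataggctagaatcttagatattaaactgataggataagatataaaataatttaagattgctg
IFIT3, chr10:89327747-89328046, plus strand: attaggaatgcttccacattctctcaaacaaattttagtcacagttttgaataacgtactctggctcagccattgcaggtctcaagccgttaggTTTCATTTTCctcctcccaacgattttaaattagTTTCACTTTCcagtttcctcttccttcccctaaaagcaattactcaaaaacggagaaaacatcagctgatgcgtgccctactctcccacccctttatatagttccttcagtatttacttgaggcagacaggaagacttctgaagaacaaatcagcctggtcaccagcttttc
PARP9, chr3:122564251-122564550, minus strand: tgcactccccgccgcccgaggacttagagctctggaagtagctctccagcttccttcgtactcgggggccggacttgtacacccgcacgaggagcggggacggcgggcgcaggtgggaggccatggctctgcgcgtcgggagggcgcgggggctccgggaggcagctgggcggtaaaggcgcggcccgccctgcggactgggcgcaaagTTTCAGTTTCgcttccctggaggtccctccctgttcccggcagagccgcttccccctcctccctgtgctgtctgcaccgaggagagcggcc
GBP1, chr1:89065159-89065458, minus strand: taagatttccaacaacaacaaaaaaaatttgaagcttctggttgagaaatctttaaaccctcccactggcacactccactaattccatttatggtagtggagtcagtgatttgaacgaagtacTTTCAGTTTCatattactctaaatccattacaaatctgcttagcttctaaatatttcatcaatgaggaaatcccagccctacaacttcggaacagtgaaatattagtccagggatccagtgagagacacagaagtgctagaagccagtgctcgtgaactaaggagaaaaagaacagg
IFIT1, chr10:89392373-89392672, plus strand: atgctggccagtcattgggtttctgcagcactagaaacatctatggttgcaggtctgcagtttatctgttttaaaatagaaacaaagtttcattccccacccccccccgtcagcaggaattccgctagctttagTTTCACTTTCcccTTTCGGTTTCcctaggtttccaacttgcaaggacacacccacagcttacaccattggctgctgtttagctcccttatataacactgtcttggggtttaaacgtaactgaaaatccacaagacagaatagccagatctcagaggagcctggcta
ISG15, chr1:1013247-1013546, plus strand: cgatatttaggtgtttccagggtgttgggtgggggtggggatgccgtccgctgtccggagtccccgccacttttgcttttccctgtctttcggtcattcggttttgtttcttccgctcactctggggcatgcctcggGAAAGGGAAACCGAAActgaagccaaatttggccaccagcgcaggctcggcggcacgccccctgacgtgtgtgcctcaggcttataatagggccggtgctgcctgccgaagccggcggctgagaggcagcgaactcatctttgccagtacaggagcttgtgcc

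The IFNE window holds no capitals. The single match of PARP9 begins at position -41 from its start site, and that of GBP1 at position -127. The 2 matches each of IFIT3 (-156 and -122), IFIT1 (-116 and -103) and ISG15 (-113 and -107) lie within a similar distance of the start, and those of ISG15 overlap. A match describes the letters in the window and was not tested as a binding site.

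IFNE stood apart from the genes that interferon induces. Its single probe set read 1.45 with siAURKA-1 and 1.12 with siAURKA-2, against -0.31 with siNT, -0.24 with MLN8237 and 0.00 with DMSO. Both AURKA siRNA arrays were high and the other 3 were low, without overlap. IFNE was thus 3.39-fold higher with siAURKA-1 than with siNT (1.76) and 2.69-fold higher with siAURKA-2 (1.43), comparisons that share the siNT array. Against DMSO the differences were 1.45 and 1.12. The lower of the siAURKA arrays lay 1.12 above the highest of the other 3 arrays, a gap that ranked 2 among all 18239 genes. By single differences, and counting IFNE, 15 genes were as high or higher for siAURKA-1 minus siNT and 13 for siAURKA-2 minus siNT. Against DMSO these counts were 29 and 91. The set was chosen with earlier results of these data known, so these ranks only describe the values and are no independent support. In all, 9 of the 38 genes had both siAURKA arrays above the other 3 (23.7%, against 14.2% of all genes), by any amount, and 0 had both below (against 9.62%). Besides IFNE these were IRF9, IFIH1, IFIT2, OAS1, IFITM2, IFITM3, IFI6 and PARP9. Between the siRNAs the difference was 0.33 (siAURKA-1 minus siAURKA-2). With MLN8237, IFNE was not higher than with DMSO (-0.24), and siNT was also below DMSO (-0.31).

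**Figure D1:**
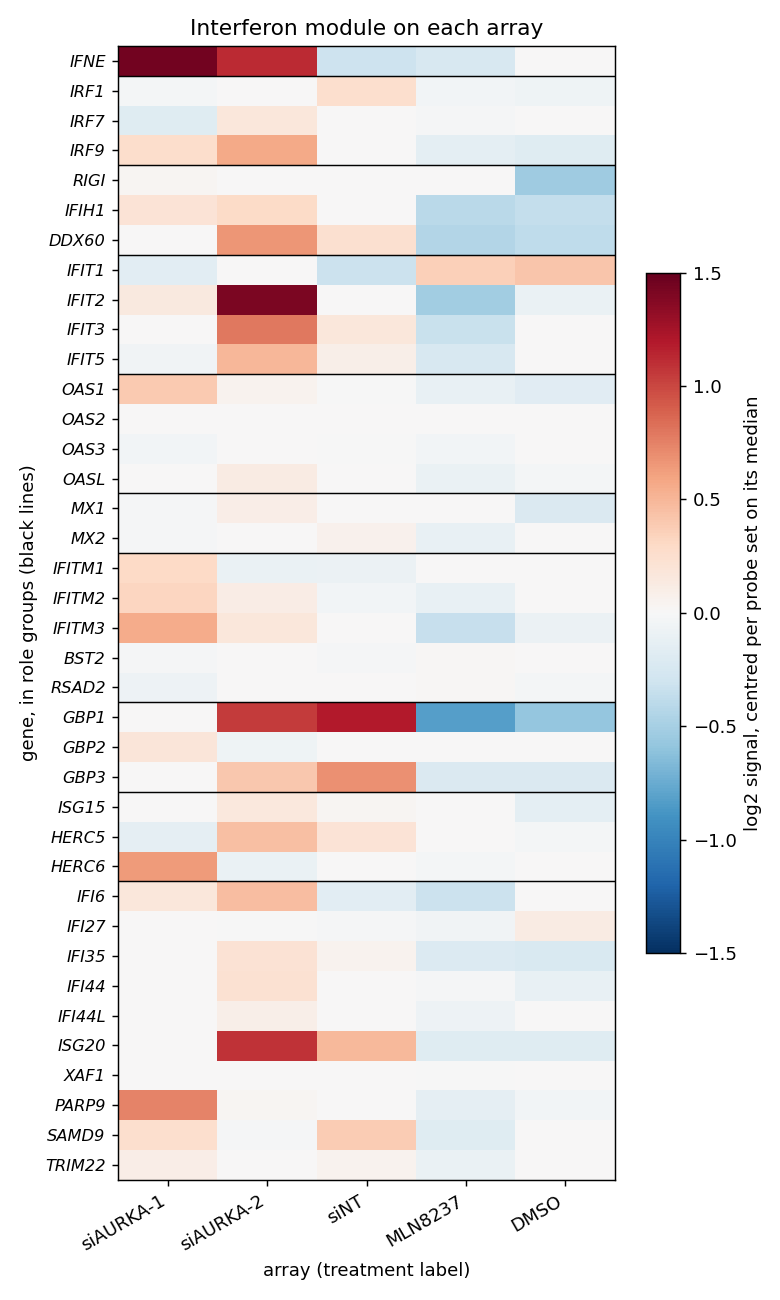
Log2 signal, centred per probe set on the median of the 5 arrays, of the 38 measured genes (rows, black lines between role groups) on each array (columns, 1 array per treatment). IFNE is high on both siAURKA arrays (1.45 and 1.12), IFIT2, IFIT3 and ISG20 are high on the siAURKA-2 array (1.42, 0.79 and 1.08), GBP1 is high with siAURKA-2 and siNT (1.04 and 1.19), and OAS2 and XAF1 hardly vary.

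None of the other measured interferon genes differed to that extent. Among 11 of 14 listed ligands that had a value, IFNB1, which infected cells make first, differed from siNT by 0.10 for siAURKA-1 and by 0.00 for siAURKA-2, and the epidermal interferon gene IFNK gave 0.01 and 0.00. The 11 ligands lay between -0.13 and 0.10 in the first comparison and between -0.17 and 0.04 in the second, and 0 reached 1.5-fold in either, against 7.05% and 5.08% of all genes. IFNE lies on the short arm of chromosome 9, within the annotated span of the long non-coding RNA gene MIR31HG, which was not analysed here. Whether the IFNE probe set also reads that transcript was not tested. Neighbouring genes differed among themselves. MTAP, a methionine salvage enzyme gene, was lower than siNT with both siRNAs (-0.63 and -1.12), the cell cycle inhibitor gene CDKN2B was 0.58 and 1.27 above siNT, and CDKN2A gave -0.09 and 0.18. Against DMSO, MTAP gave -0.34 and -0.83, CDKN2B 1.12 and 1.81, and CDKN2A -0.14 and 0.13. Like IFNE, CDKN2B had both siAURKA arrays (0.58 and 1.27) above siNT (0.00), MLN8237 (-0.18) and DMSO (-0.55). Over all genes 14.2% had both siAURKA arrays above the others. Of 7 measured neighbours, 0 were at least 1.5-fold higher and 1 lower with siAURKA-1, and 1 was higher and 1 lower with siAURKA-2. Over all genes these shares were 2.57% and 4.48% with siAURKA-1, and 1.96% and 3.11% with siAURKA-2.

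With siAURKA-1 the set's balance depended on the control array. Against siNT the median of the 38 genes was 0.00 (0.00 over all genes), with 17 above and 17 below, where 47.2% of all genes lay above and 42.2% below. Against DMSO the median was 0.17 (0.00 over all genes), with 25 above and 9 below, where 49.4% of all genes lay above and 38.9% below. Of the 38, 3 were at least 1.5-fold higher, against 2.57% of all genes, and 2 at least 1.5-fold lower, against 4.48%; together they made 13.2% of the set, against 7.05% of all genes. The higher genes were IFNE, PARP9 (0.74), whose protein works with the ubiquitin ligase DTX3L in interferon signalling and DNA damage repair, and HERC6 (0.64), of the HERC ubiquitin ligase family. The lower genes were GBP1 (-1.19) and GBP3 (-0.68), guanylate-binding GTPases that act against intracellular pathogens. Against DMSO they gave 0.58 and 0.22, so their sign depended on the control array. With DMSO as control 4 genes passed 1.5-fold upward for siAURKA-1, as did 3.27% of all genes: IFNE (1.45), PARP9 (0.79), IFITM3 (0.65) and HERC6 (0.64).

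With siAURKA-2 the differences from siNT ran mostly one way. Here 26 of the 38 genes were above siNT and 9 below, where 45.9% of all genes were above and 42.3% below, and the median was 0.09 (0.00 over all genes). Of the 38, 5 were at least 1.5-fold higher (13.2%, against 1.96% of all genes) and 0 lower (against 3.11%). Besides IFNE they were IFIT2 (1.42), IFIT3 (0.62), IFI6 (0.62) and ISG20 (0.60). IRF9, at 0.57, and DDX60 and IFIT5, each at 0.41, fell short of 1.5-fold. Set against DMSO instead, the median was 0.19, with 26 genes above and 8 below, close to the split of siAURKA-1 against DMSO, and 9 genes were at least 1.5-fold higher, against 2.65% of all genes, adding IRF9, IFIH1, DDX60, GBP1 and GBP3 and losing IFI6.

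With MLN8237, 0 of the 38 genes reached 1.5-fold from DMSO in either direction, where 0.482% of all genes did (0.367% higher and 0.115% lower). The furthest were RIGI (0.54) and IFIT2 (-0.43). In all, 25 of the 38 lay below DMSO and 11 above, where 46.1% of all genes lay below and 38.7% above, and the median was -0.04. All 4 IFIT genes were among the 25, at between -0.43 and -0.06. Against siNT, 5 of the 38 were at least 1.5-fold apart, where 1.61% of all genes were, with IFIT1 higher (0.68) and GBP1 (-2.02), GBP3 (-0.90), DDX60 (-0.69) and ISG20 (-0.67) lower.

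The non-targeting siRNA was compared with DMSO to show what differs between the control arrays. Of the 38 genes, 4 were at least 1.5-fold higher with siNT (10.5%, against 1.53% of all genes), namely GBP1 (1.76), GBP3 (0.90), ISG20 (0.66) and DDX60 (0.63), and 1 was lower (against 0.554%), IFIT1 (-0.74). Either way these were 5 of the 38, against 2.08% of all genes. The median was 0.07, with 24 genes above DMSO and 10 below, where 47.6% of all genes lay above and 39.6% below. GBP1 therefore differed as much between the controls (3.40-fold) as IFNE did between siAURKA-1 and siNT.

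**Figure D2:**
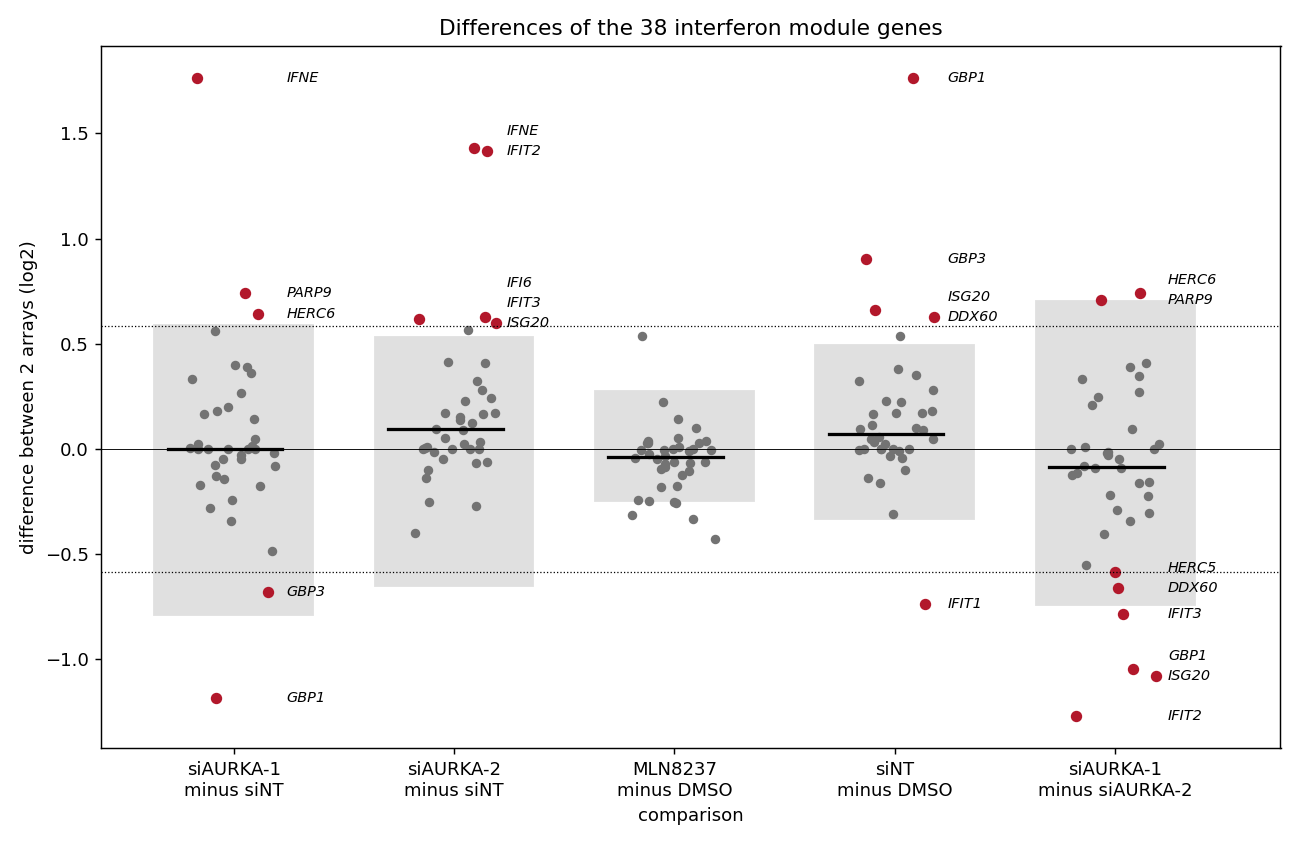
Log2 differences of the 38 genes (points) in 5 comparisons of single arrays. Red points with names are at least 1.5-fold apart (dotted lines), black bars are medians of the 38 genes, and grey boxes hold the middle 95% of all 18239 genes. IFNE is high in both siAURKA comparisons (1.76 and 1.43), no gene of the set is named for MLN8237 minus DMSO, and GBP1 leads siNT minus DMSO (1.76).

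Set directly against each other, the siRNAs differed in 8 of the 38 genes (21.1%, against 7.66% of all genes). PARP9 (0.71) and HERC6 (0.74) were higher with siAURKA-1 than with siAURKA-2, as were 3.68% of all genes. IFIT2 (-1.27), ISG20 (-1.08), GBP1 (-1.04), IFIT3 (-0.79), DDX60 (-0.66) and HERC5 (-0.59) were lower, as were 3.99% of all genes. The median was -0.09. These values use no control array. In 3 of the 38 genes (7.89%, against 2.66% of all genes) the siRNAs lay on opposite sides of siNT with 1 or both at least 1.5-fold from it, namely IFIT3, HERC6 and ISG20. At the stricter limit of 2-fold, IFNE and GBP1 remained for siAURKA-1 minus siNT (1.96% of all genes), IFNE and IFIT2 for siAURKA-2 minus siNT (1.26%), no gene for MLN8237 minus DMSO (0.0658%), GBP1 for siNT minus DMSO (0.296%), and IFIT2, GBP1 and ISG20 between the siRNAs (2.16%).

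All 3 siRNA arrays were also set against both arrays without siRNA. For 14 of the 38 genes the siAURKA-1, siAURKA-2 and siNT arrays all lay above MLN8237 and DMSO (36.8%, against 13.1% of all genes), by any amount, and for 2 all lay below (5.26%, against 6.35%). The 14 were IRF1, IRF9, IFIH1, DDX60, IFIT2, OAS1, OASL, IFITM3, GBP1, GBP3, IFI35, IFI44, ISG20 and PARP9, and the 2 were IFIT1 and BST2. IFNE was not among them, since siNT lay at the low end. This grouping was made after the values were seen, and siRNA and whatever else differs between these arrays cannot be told apart.

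Among the regulators, IRF9, the DNA-binding partner of STAT2, varied most. It read 0.26 with siAURKA-1 and 0.57 with siAURKA-2, against 0.00 with siNT, -0.14 with MLN8237 and -0.18 with DMSO. Both siAURKA arrays were high, and siAURKA-2 was 0.75 above DMSO. Its 4 probe sets spread widely, reading 1.36, 0.89, 0.24 and 0.22 with siAURKA-2 and 0.65, 0.37, 0.00 and 0.16 with siAURKA-1. With siNT they read 0.00, 0.00, 0.00 and -0.15. The first and second were thus over 1.5-fold above siNT with siAURKA-2, and the first also with siAURKA-1. IRF7, which amplifies interferon production, read -0.18 with siAURKA-1 and 0.17 with siAURKA-2, against 0.00 with siNT, -0.01 with MLN8237 and 0.01 with DMSO. IRF1, a factor that interferon gamma and NF-kB induce, was highest with siNT, at 0.26, with the other arrays between -0.07 and 0.00. By the median of its probe sets, none of these 3 genes was 1.5-fold from siNT with either AURKA siRNA, or from DMSO with MLN8237 or siNT.

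The 3 cytosolic RNA sensor genes were low on the DMSO array. RIGI, the sensor of RNA with triphosphate ends, read 0.02 with siAURKA-1 and 0.00 with siAURKA-2, siNT and MLN8237 each, against -0.54 with DMSO. Only the DMSO array was low, and all 3 probe sets were lowest there. IFIH1, encoding the long double-stranded RNA sensor MDA5, read 0.20 with siAURKA-1, 0.28 with siAURKA-2 and 0.00 for siNT, against -0.40 with MLN8237 and -0.35 with DMSO. DDX60, a helicase gene linked to RIGI signalling, read 0.00 with siAURKA-1, 0.66 with siAURKA-2 and 0.25 for siNT, against -0.44 with MLN8237 and -0.38 with DMSO. For IFIH1 and DDX60 the 3 siRNA arrays lay above the other arrays, and for RIGI the MLN8237 array lay with siAURKA-2 and siNT.

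The IFIT genes encode proteins that bind foreign RNA and block its translation, and their order over the arrays was not shared. IFIT2 read 1.42 with siAURKA-2, against 0.14 with siAURKA-1, 0.00 with siNT, -0.53 with MLN8237 and -0.10 with DMSO. Its 2 probe sets gave 1.34 and 1.49 for siAURKA-2 minus siNT. IFIT3, the partner of IFIT1 and IFIT2, read 0.00 with siAURKA-1 and 0.79 with siAURKA-2, against 0.17 with siNT, -0.33 with MLN8237 and 0.00 with DMSO. IFIT5 followed the same order at a smaller scale, with 0.49 with siAURKA-2 as its highest value and -0.25 with MLN8237 as its lowest. These 3 genes were highest with siAURKA-2 and lowest with MLN8237. IFIT1 was instead lower on all siRNA arrays than on the arrays without siRNA. It read -0.16 with siAURKA-1, 0.00 with siAURKA-2 and -0.32 for siNT, against 0.35 with MLN8237 and 0.42 with DMSO. For siAURKA-2 minus siNT (0.32) and MLN8237 minus DMSO (-0.06) it had the same sign as the other IFIT genes. IFIT1 and IFIT3 rest on 1 probe set each, that of IFIT3 of a kind that may match several transcripts, and both genes carry core matches in the promoters printed above.

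**Figure D3:**
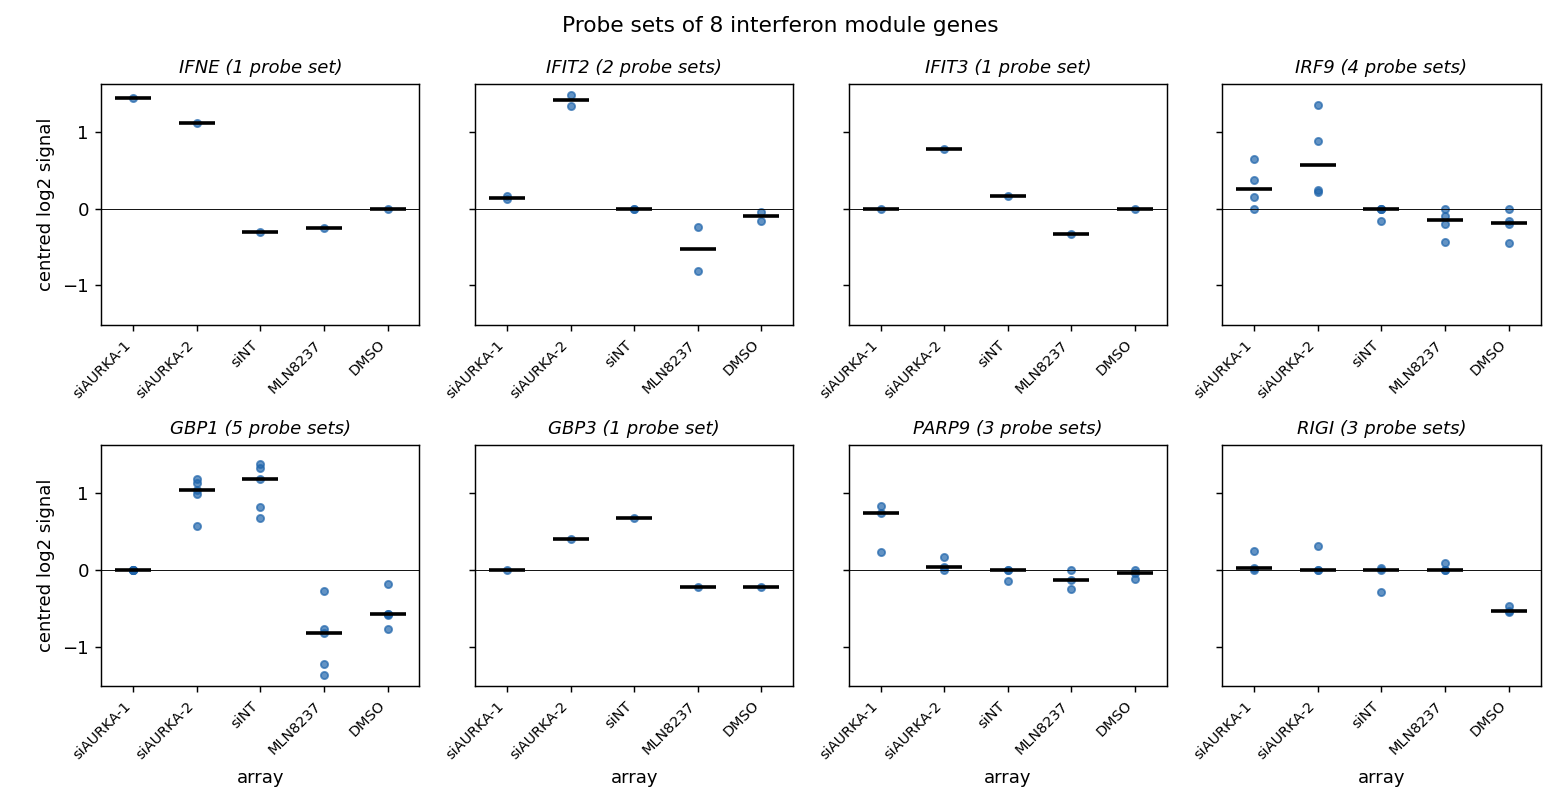
Centred log2 signal of each probe set (blue points) and the gene's median (black bars) on the 5 arrays for 8 genes. The probe sets of IFIT2 lie close together on the siAURKA-2 array, those of RIGI lie together on the DMSO array, where all 3 are lowest, and differ elsewhere, those of IRF9 spread on the siAURKA-2 array, and IFNE, IFIT3 and GBP3 have 1 probe set each.

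The classical antiviral enzyme and GTPase genes were among the least variable. OAS2, encoding an oligoadenylate synthetase that activates RNase L, was 0.00 on all 5 arrays, OAS3 lay between -0.05 and 0.00, and OASL between -0.10 and 0.12. OAS1 was the exception, with 0.40 with siAURKA-1 and 0.05 with siAURKA-2, against 0.00 with siNT, -0.12 with MLN8237 and -0.17 with DMSO, short of 1.5-fold from siNT. Its 4 probe sets disagreed, reading 1.27, 0.53, 0.26 and 0.20 with siAURKA-1, so 1 of them was over 2-fold above siNT. MX1, a GTPase that traps viral nucleocapsids, lay between -0.22 (DMSO) and 0.10 (siAURKA-2), and MX2 between -0.12 and 0.06. Of the 38 genes, 11 had a range under 0.25 over the 5 arrays (28.9%, against 54.8% of all genes): OAS2, OAS3, OASL, MX2, BST2, RSAD2, GBP2, IFI27, IFI44L, XAF1 and TRIM22. A flat gene may be silent or steady, which these values cannot tell apart. Its median may also hide probe sets that disagree. Of the 6 probe sets of TRIM22, 1 ran from -0.08 with siAURKA-2 to 0.53 with siNT. Another ran from -0.14 with siAURKA-2 to 0.45 with siNT. The median range was 0.50 in the set and 0.22 over all genes, and 6 of the 38 had a range of at least 2-fold (15.8%, against 4.89% of all genes).

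Among genes of membrane and lipid restriction factors, the IFITM genes were highest with siAURKA-1. The IFITM proteins hinder fusion of viral with cell membranes. IFITM3 read 0.56 with siAURKA-1 and 0.17 with siAURKA-2, against 0.00 with siNT, -0.35 with MLN8237 and -0.09 with DMSO, and was 0.65 higher with siAURKA-1 than with DMSO. IFITM1 (0.30) and IFITM2 (0.32) were also highest with siAURKA-1. The 3 IFITM genes are related in sequence, their values come mostly from probe sets of a kind that may match several transcripts, and signal may be shared among them. BST2, encoding tetherin, which holds budding virions at the cell surface, lay between -0.02 and 0.02, and RSAD2, encoding viperin, between -0.08 and 0.01.

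Among the guanylate-binding protein genes, GBP1 had a range of 2.02 over the arrays, against 1.94 for IFIT2 and 1.76 for IFNE, while GBP2 had a range of 0.25. GBP1 read 0.00 with siAURKA-1, 1.04 with siAURKA-2 and 1.19 for siNT, against -0.83 with MLN8237 and -0.58 with DMSO. The siAURKA-2 and siNT arrays were high, siAURKA-1 was intermediate, and the arrays without siRNA were low. All 5 probe sets gave the same direction in siAURKA-1 minus siNT (from -1.39 to -0.68) and in siNT minus DMSO (from 0.87 to 2.10). Since 4 of the 5 are of the kind that may match several transcripts, signal from related GBP genes may enter. The remaining probe set ran from -0.28 with MLN8237 to 1.04 with siAURKA-2, above its siNT value of 0.68, and gave -0.68 for siAURKA-1 minus siNT, 0.36 for siAURKA-2 minus siNT and 0.87 for siNT minus DMSO. GBP3 followed the same order, with 0.00 with siAURKA-1, 0.41 with siAURKA-2 and 0.68 for siNT, against -0.22 with MLN8237 and -0.22 with DMSO. GBP2 did not, with 0.18 with siAURKA-1 as its highest value and -0.07 with siAURKA-2 as its lowest.

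ISG15, a ubiquitin-like protein that is conjugated to other proteins, and its HERC ligases were read separately. ISG15 lay between -0.14 with DMSO and 0.16 with siAURKA-2. HERC5, the main ISG15 ligase in human cells, read -0.14 with siAURKA-1 and 0.45 with siAURKA-2, against 0.20 with siNT, 0.00 with MLN8237 and -0.03 with DMSO. HERC6, which has that role in mice, read 0.64 with siAURKA-1 and -0.10 with siAURKA-2, against 0.00 with siNT, -0.03 with MLN8237 and 0.00 with DMSO. HERC5 was thus lowest, and HERC6 highest, on the siAURKA-1 array. Each rests on 1 probe set.

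Of the remaining 10 induced genes, ISG20, PARP9 and IFI6 varied most. ISG20, an exonuclease of single-stranded RNA, read 0.00 with siAURKA-1, 1.08 with siAURKA-2 and 0.48 for siNT, against -0.18 with MLN8237 and -0.18 with DMSO. PARP9 read 0.74 with siAURKA-1 and 0.03 with siAURKA-2, against 0.00 with siNT, -0.13 with MLN8237 and -0.05 with DMSO, and by this median only siAURKA-1 was high. Its 3 probe sets were between 0.38 and 0.84 for siAURKA-1 minus siNT, and between 0.07 and 0.84 for siAURKA-1 minus siAURKA-2. The probe set with the smallest difference read 0.23 with siAURKA-1 and 0.17 with siAURKA-2, against -0.15 with siNT. IFI6, a mitochondrial and endoplasmic reticulum protein that restrains apoptosis and flavivirus replication, read 0.17 with siAURKA-1 and 0.46 with siAURKA-2, against -0.16 with siNT, -0.32 with MLN8237 and 0.00 with DMSO. SAMD9, an antiviral factor against poxviruses, was highest with siNT, at 0.38, and IFI35 (-0.23 to 0.22) and IFI44 (-0.11 to 0.23) were highest with siAURKA-2. IFI27, IFI44L, TRIM22 and XAF1, the last a proapoptotic partner of XIAP, had ranges of at most 0.19 in the medians of their probe sets.

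The rest of the pathway was read from lists of other genes. Of 10 measured receptor and JAK-STAT genes, 0 were at least 1.5-fold higher and 1 lower with siAURKA-1 than with siNT, namely IFNLR1, a receptor chain for lambda interferons (-0.71), and with siAURKA-2 none reached 1.5-fold (all genes 2.57% higher and 4.48% lower with siAURKA-1, and 1.96% and 3.11% with siAURKA-2). Between siNT and DMSO, IFNLR1 (0.69) and JAK1 (0.61), a kinase of the receptor, were at least 1.5-fold higher, as were 1.53% of all genes, and all 10 lay above DMSO (median 0.26), where 47.6% of all genes did. Of 17 nucleic acid sensors and adaptors, 0 reached 1.5-fold with siAURKA-1, siAURKA-2, MLN8237 or siNT against their controls, where 7.05%, 5.08%, 0.482% and 2.08% of all genes did. The double-stranded RNA receptor gene TLR3 gave 0.26 and -0.02 for siAURKA-1 and siAURKA-2 against siNT. Of 9 feedback and conjugation genes, 1 passed 1.5-fold with each AURKA siRNA against siNT, with the same shares of all genes as for the receptors. PTPN2, a phosphatase of JAK kinases, was lower with siAURKA-1 (-0.83), and IRF2, which competes with IRF1, was higher with siAURKA-2 (0.69), while USP18, which removes ISG15 and restrains the receptor, gave -0.10 and 0.15.

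Antigen presentation genes, which interferon also induces, were near siNT with siAURKA-1 (median 0.02 over 12 genes, 0 past 1.5-fold) and gave a median of 0.15 with siAURKA-2. HLA-B alone of the 12 was at least 1.5-fold higher there (1.17), as were 1.96% of all genes, with probe sets that related HLA genes may share. All 12 were above DMSO with siNT (median 0.22, 0 past 1.5-fold), where 47.6% of all genes were above. Among 31 further stimulated genes outside the set, 1 was at least 1.5-fold higher and 3 lower with siAURKA-1 than with siNT (median -0.07), where 2.57% and 4.48% of all genes were, and 0 were higher and 1 lower with siAURKA-2 (median -0.03), where 1.96% and 3.11% were. The galectin-binding glycoprotein gene LGALS3BP (0.73) was the higher one. The tryptophanyl-tRNA synthetase gene WARS1 (-1.14) and EPSTI1 (-1.03) were lower with siAURKA-1, and EPSTI1 was also lower with siAURKA-2 (-0.66). Set against DMSO instead, EPSTI1 gave -0.42 and -0.04, short of 1.5-fold, and its siNT array was 0.61 above DMSO. CXCL10, a chemokine gene among the most responsive to interferon, gave 0.07 and 0.00 against siNT. With MLN8237, 0 of these 31 reached 1.5-fold from DMSO, and with siNT 3 were higher, among them IFI16, a DNA sensor gene (0.73), and 0 were lower (median 0.16), where 1.53% and 0.554% of all genes were.

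Genes with the interferon response core in a promoter window were then set beside those without. Within the set, the median of siAURKA-1 minus siNT was -0.02 over the 22 genes with a match and 0.14 over the 8 without. The 8 include the ligand gene IFNE (1.76), and the median of 0.14 depends on counting it. The others were HERC6 (0.64), OAS1 (0.40), IRF9 (0.26), RIGI (0.02), XAF1 (0.00), IFI35 (-0.05) and IRF1 (-0.28). For siAURKA-2 minus siNT the median was 0.12 with a match and 0.03 without, and for siNT minus DMSO 0.10 and 0.17. Over all measured genes with a promoter window, 594 held the core, and their medians in these comparisons were 0.00, 0.00 and 0.02, against 0.00 in each for the 13898 without. At least 1.5-fold higher with siNT than with DMSO were 2.53% of the genes with the core and 1.55% of those without. The corresponding shares were 2.36% and 2.04% with siAURKA-2 against siNT, and 2.86% and 2.68% with siAURKA-1. With MLN8237 they were 0.505% and 0.381% against DMSO. Of the 594 genes with the core, 22 are genes of the set. The 22 supply 4 of the 15 genes higher for siNT minus DMSO and 3 of the 14 for siAURKA-2 minus siNT. They supply 1 of the 17 for siAURKA-1 minus siNT and 0 of the 3 for MLN8237 minus DMSO. The longer form was held by 54 of the measured genes with a promoter window, so each of its shares rests on at most 3 genes past 1.5-fold upward. With it and without it, 5.56% and 1.58% were higher for siNT minus DMSO, 5.56% and 2.04% for siAURKA-2 minus siNT, and 2 of the 54 genes and 2.68% for siAURKA-1 minus siNT, while for MLN8237 minus DMSO the shares were 0 and 0.388%. At least 1.5-fold lower were 1.85% and 0.610% for siNT minus DMSO, and 1.85% and 3.21% for siAURKA-2 minus siNT. For siAURKA-1 minus siNT the lower shares were 7.41% and 4.66%, and for MLN8237 minus DMSO 0 and 0.104%. Of the 54, 14 are genes of the set. They make 1 of the 3 genes higher for siNT minus DMSO, 2 of the 3 for siAURKA-2 minus siNT and 1 of the 2 for siAURKA-1 minus siNT. The motif search was chosen after the values were seen.

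**Figure D4:**
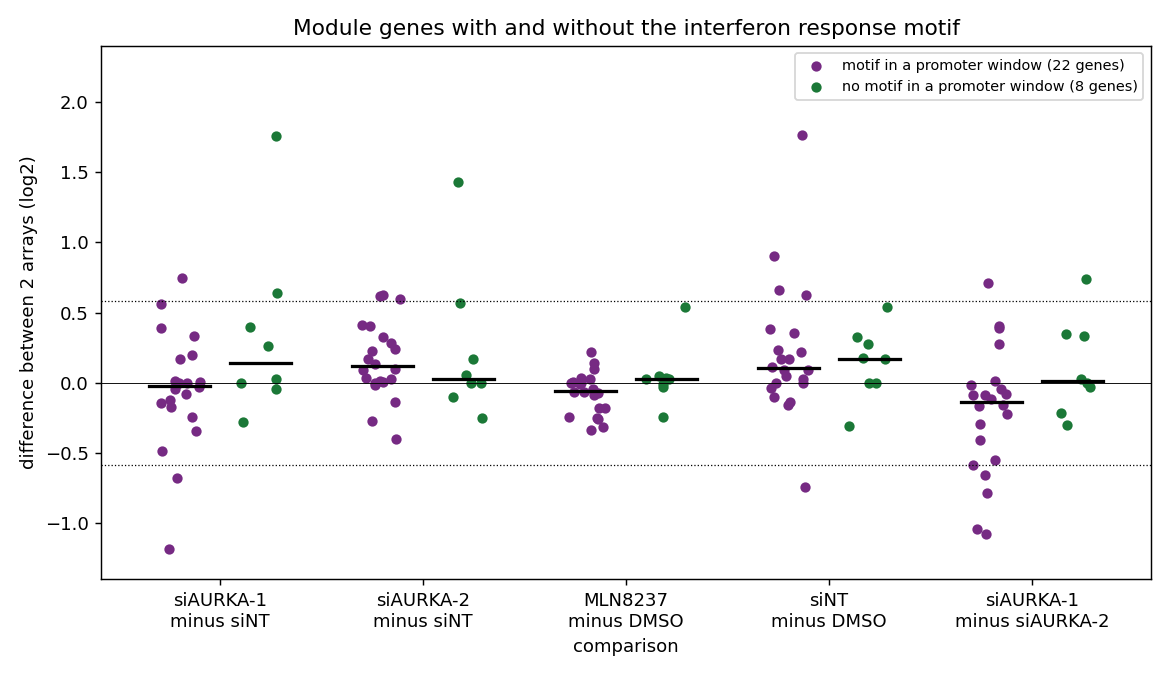
Log2 differences of the 30 genes with a promoter window, split into 22 with the core motif (purple) and 8 without (green), in 5 comparisons of single arrays, with black bars for medians and dotted lines at 1.5-fold. The groups overlap in every comparison, and IFNE (1.76 and 1.43) is the highest green point in both siAURKA comparisons.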

How the data were processed

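Per the labels' protocols, 10 ng of total RNA was biotin-labelled by 3′ in vitro transcription and hybridised on the GeneAtlas system. The deposited values were treated as log2 signal. The submitters' processing notes name RMA, and its version, the log base and the centring were not given in any source used. The median over the 5 arrays was exactly 0 in all 49386 probe sets. Probe sets naming 1 gene (45259) were given current symbols through their Entrez number (45178 matched), those naming several genes (1327) were left out, and a gene's value was the median of its probe sets. Groups follow the treatment label. Differences were computed with Python 3.11.15 and pandas 2.3.3, and the counting was tested on simulated data. Alternatives were a higher and a lower fold, array centring, other probe set summaries and other control arrays. The set, lists and rule for naming genes (all members, and up to 4 genes with the largest differences of each other list) were chosen with earlier results of these data known. AURKA was named as the knockdown check, and IFNB1, IFNK, TLR3, USP18 and CXCL10 were named for their roles, outside the rule and after their values were seen, as were the motif search and the grouping of arrays by non-overlap. Promoter sequences are from RefSeq (GRCh38.p14).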

Additional observations from a re-analysis of the deposited data

Results flagged for a closer look

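In 3 of 38 genes (7.89%, against 2.66% of all genes) the siAURKA arrays lay on opposite sides of siNT, with at least 1 of them 1.5-fold from it. For siAURKA-1 the difference was -0.48 in ISG20, -0.17 in IFIT3 and 0.64 in HERC6, and for siAURKA-2 it was 0.60 in ISG20, 0.62 in IFIT3 and -0.10 in HERC6. Each side is a single array and these differences were not tested. Those of ISG20 and IFIT3 also depend on siNT. Against DMSO, siAURKA-1 and siAURKA-2 gave 0.18 and 1.26 in ISG20 and 0.00 and 0.79 in IFIT3, no longer on opposite sides. HERC6 gave 0.64 and -0.10 against either control.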

How the results depend on the processing

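No paired analysis was possible because each treatment has 1 array. The count of genes at least 1.5-fold apart was 5 for siAURKA-1 minus siNT, 5 for siAURKA-2 minus siNT, 0 for MLN8237 minus DMSO, 5 for siNT minus DMSO and 8 for siAURKA-1 minus siAURKA-2. At 2-fold the counts were 2, 2, 0, 1 and 3, and at a lower limit of 0.322 on the log2 scale 12, 10, 3, 9 and 15. Taking the probe set of largest standard deviation gave 8, 8, 2, 5 and 12. That standard deviation was taken over these same arrays, so the choice favours larger differences by construction. Any other cause of these changes, beyond the limit itself, was not tested. With DMSO as control siAURKA-1 gave 4 and siAURKA-2 gave 9, and with the mean of both controls they gave 4 and 7. MLN8237 gave 5 against siNT and 1 against that mean. IFNE was 1.45 and 1.12 with the siRNAs against DMSO and 0.065 with MLN8237 against siNT. GBP1 and GBP3 changed sign for siAURKA-1 when DMSO replaced siNT, to 0.58 and 0.22, as siNT was above DMSO for both. Centring arrays changed no value, because each array's median over genes was already 0. Medians of the set stayed within 0.1 of those reported under array centring, the mean of probe sets and the omission of _x_at and _s_at probe sets, which left 31 of the 38 genes. The control array moved them more, in alternatives chosen after seeing the data: with DMSO in place of siNT the median was 0.17 for siAURKA-1 (25 genes above and 9 below, against 17 and 17) and 0.19 for siAURKA-2, and with siNT in place of DMSO it was -0.11 for MLN8237. Signal over background is unknown, so values near background could not be set aside.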
